A study of Bos taurus with 2 samples.

Results

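Levels of 9 genes of the red blood cell lineage were followed across single cells of day 25 bovine embryos: the transcription regulators GATA1, KLF1 and TAL1, the heme enzyme ALAS2, the mitochondrial iron importer SLC25A37, the transferrin receptor TFRC, the anion exchanger SLC4A1, the globin chaperone AHSP and the nuclear protein HEMGN. They were listed by name, and all 9 have a row among the 17846 genes of the count table. Their levels were compared between globin-high barcodes, those with over 5% of their UMI from the embryonic globin genes HBZ, HBE1 and HBE4, and all other barcodes. A UMI, or unique molecular identifier, marks a single captured RNA molecule. The embryos were chimeras that carried incorporated bovine embryonic stem cells, and were flushed, dissociated with papain, sorted and loaded on a 10x Genomics 3′ platform. Both libraries, called replicate 1 and replicate 2, belong to the same group, without a control, and nothing in the labels ties them to separate embryos.

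The globin-high group held 9 of 1973 barcodes in replicate 1 and 23 of 2464 in replicate 2. It summed to 226458 and 545392 UMI, of which the 3 globins made up 48.5% and 49.7%. The other 1964 and 2441 barcodes summed to 10955631 and 14882316 UMI, with 0.0731% and 0.0671% from these globins. The threshold fell in a sparse range. The globin-high barcodes nearest to it had 5.90%, 9.04%, 11.7% and 15.9% globin, all in replicate 2 and with 949 to 3500 UMI, and the next had 26.8%. The nearest barcodes outside it had 4.67% and 2.64%. The libraries shared 6 cell barcodes, of which 0 were globin-high. Because these globins filled so much of the globin-high barcodes, every level below is in CPM, the UMI of a gene for each 1000000 UMI outside HBZ, HBE1 and HBE4.

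Red cells are made from progenitors in which GATA1, TAL1 and their partners switch on a shared program, and KLF1 then raises globin and membrane genes. The maturing cell takes up transferrin-bound iron through TFRC, moves it into mitochondria through SLC25A37 and builds it into heme, a pathway whose first step in this lineage is made by ALAS2. AHSP binds free alpha-type globin chains, and SLC4A1 (band 3) exchanges bicarbonate for chloride and ties the membrane to its skeleton. In early embryos the first red cells are large, nucleated primitive erythroblasts that arise in the yolk sac and carry embryonic globins.

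All 9 genes were higher in the globin-high barcodes in both libraries, by log2 fold changes of 2.35 (TFRC) to 10.75 (HEMGN). The test was edgeR's quasi-likelihood test on UMI summed per library and group, with library as a term and Benjamini-Hochberg adjustment over 13187 genes. The largest adjusted p of the 9 was 7.3e-10, for TFRC. Across all genes tested, 11.0% were called higher and 22.8% lower, and the median log2 fold change was -0.90. Scaled by totals alone, 1020 genes were higher and 4479 lower, and with upper-quartile scaling 1976 and 1945; all 9 members were called higher under both. The fitted log2 fold changes include edgeR's TMM scaling between groups, whereas the folds given below for single libraries are plain ratios of CPM without it and come out smaller. Only 3 of the 9 genes (AHSP, SLC25A37 and TFRC) reached the minimum level for testing in the other barcodes alone. The other 6 entered through the globin-high barcodes, where they had to be high to be tested, so their calls describe the genes and support nothing further. The test had 1 residual degree of freedom, and its spread was in effect the one shared by all genes. By limma-trend the largest adjusted p of the 9 was 0.036, again for TFRC, with 5.42% of genes called higher and 26.2% lower.

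**Figure D1:**
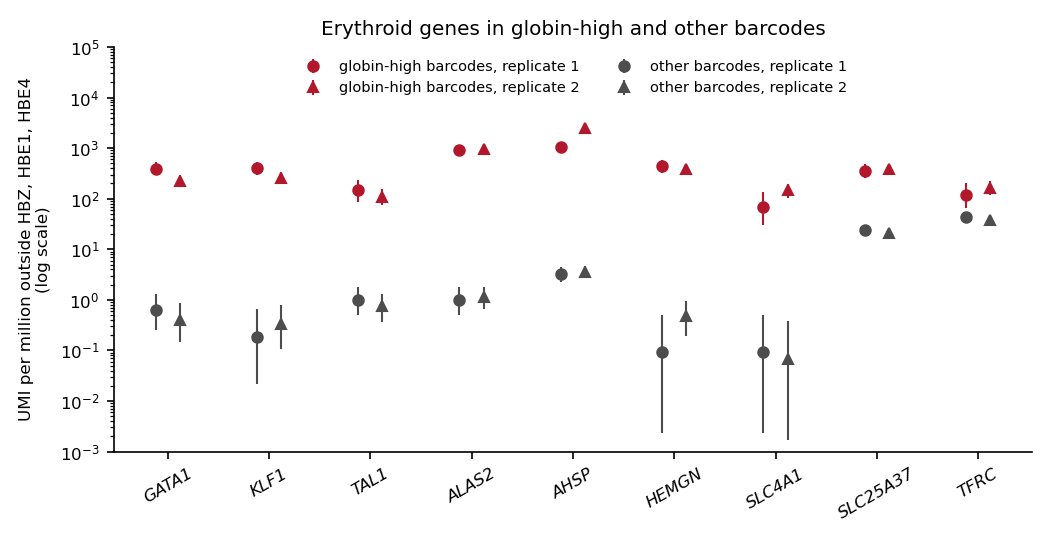
Level of each erythroid gene in CPM outside HBZ, HBE1 and HBE4 (log axis) in globin-high (red) and other (grey) barcodes of replicate 1 (circles) and replicate 2 (triangles). Bars are exact 95% Poisson intervals (counting error). The groups lie farthest apart for genes such as KLF1, HEMGN and SLC4A1 and nearest for TFRC, at 120.0 and 164 against 42.8 and 37.6.

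GATA1, the master regulator of the lineage, had 46 UMI at 394 CPM in the globin-high barcodes of replicate 1 and 62 UMI at 226 CPM in replicate 2. In all other barcodes it had 7 UMI at 0.639 CPM and 6 UMI at 0.403 CPM. The log2 fold change was 9.61 (SE 0.43, edgeR adjusted p = 5.5e-105). The plain CPM ratios were 617-fold and 560-fold, and the groups lay far apart in both libraries. KLF1, an activator of globin and membrane genes, stood at 403 and 262 CPM against 0.183 and 0.336. Its log2 fold change was 10.57 (SE 0.45, adjusted p = 3.3e-116). KLF1 was found in 28 of the 28 barcodes with over 20% globin, at 1 to 11 UMI each, and in 2 and 5 of the other barcodes.

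TAL1, which forms a DNA-binding complex with GATA1, was the least abundant of the regulators in UMI, with 17 and 30 in the globin-high barcodes. It stood at 146 and 109 CPM there and at 1.00 and 0.740 CPM in the other barcodes. The log2 fold change of 7.63 (SE 0.66, adjusted p = 1.2e-28) was smaller than that of GATA1 or KLF1, and no test of these differences between genes was made. Outside the globin-high group the TAL1 UMI were not spread evenly. Of its 22 UMI there, 11 lay in 2 barcodes with at least 2 TAL1 UMI that also carried PF4, a platelet chemokine, and PECAM1, a platelet and endothelial adhesion gene. These 2 barcodes also held 5 of the 13 GATA1 UMI found outside the globin-high group.

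One of these barcodes, in replicate 1, had 8 TAL1 and 4 GATA1 UMI together with 203 UMI of PF4, 15 of ITGA2B (a platelet integrin), 8 of PECAM1, 5 of RUNX1 and 4 of NFE2. Its globin share was 0.0122%, and KLF1, ALAS2, AHSP and HEMGN were at 0 among its 8209 UMI. The other, in replicate 2, had 3 TAL1, 1 GATA1, 7 PF4 and 2 PECAM1 UMI among 4759, and ITGA2B at 0. Both were picked out after their values had been seen. In both, GATA1 and TAL1 thus lay beside a platelet gene, with KLF1, ALAS2, AHSP and HEMGN undetected. A further barcode, with 1 TAL1 UMI, 1 of PF4 and 2 of PECAM1, carried 9 UMI of CSF1R and 5 of PTPRC, genes of macrophages and of white blood cells in general.

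ALAS2 makes the first, rate-setting step of heme synthesis in red cells. It had 108 UMI at 926 CPM and 269 UMI at 980.2 CPM in the globin-high barcodes, against 11 UMI at 1.00 CPM and 17 UMI at 1.14 CPM. The libraries differed little in it, with plain CPM ratios of 921-fold and 858-fold, and the TMM-scaled log2 fold change was 10.23 (SE 0.31, adjusted p = 3.4e-222). HEMGN (hemogen), a nuclear protein of blood-forming cells, stood at 437 and 383 CPM against 0.0913 and 0.471 CPM. Its CPM ratio in replicate 1 rests on 1 UMI in the other barcodes (4785-fold, exact 95% interval 821 to 192648), and was 813-fold (381 to 2071) in replicate 2.

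AHSP, the chaperone of alpha-type globin, differed most between the libraries in its level within the globin-high barcodes. It had 125 UMI at 1071 CPM in the globin-high barcodes of replicate 1 and 697 UMI at 2539.8 CPM in those of replicate 2, a mean of 1806 CPM ± 1038 (SD, n = 2). In the other barcodes it had 35 and 54 UMI, at 3.20 and 3.63 CPM. The log2 fold change was 9.47 (SE 0.24). The gap between the libraries came from 2 barcodes of replicate 2, which held 321 and 143 AHSP UMI. Without these 2 barcodes, an alternative chosen after seeing the data, AHSP in replicate 2 stood at 999 CPM and the log2 fold change was 8.70.

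SLC4A1 was sparse. It had 8 UMI at 68.6 CPM and 40 UMI at 146 CPM in the globin-high barcodes, and 1 UMI in the other barcodes of each library. Over both libraries the plain CPM ratio was 1584-fold, with an exact 95% interval of 415 to 13458, and the TMM-scaled log2 fold change was 10.66 (SE 0.93, adjusted p = 1.2e-28). With so few UMI the 2 libraries' intervals overlapped in the globin-high group (29.6 to 135 and 104 to 198 CPM). Its UMI were nonetheless spread out, over 7 of 9 and 18 of 23 globin-high barcodes, with at most 6 in any.

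SLC25A37 (mitoferrin-1) and TFRC, the genes of iron supply, were the members also found widely outside the globin-high group. SLC25A37 had 42 and 104 UMI at 359.9 and 379 CPM in the globin-high barcodes and 263 and 316 UMI at 24.0 and 21.2 CPM in the others. The plain CPM ratios were 15.0-fold and 17.8-fold, and the TMM-scaled log2 fold change was 4.51 (SE 0.29, adjusted p = 8.8e-51). The count table holds a second row under the same symbol with a suffix, and RefSeq (ARS-UCD2.0) lists SLC25A37 and, next to it, a gene that carries this symbol as a synonym. Which row is which gene is not given, and reads of one could be counted for the other. The second row stood at 539.9 and 616 CPM against 30.4 and 28.0 (log2 fold change 4.79, SE 0.26, adjusted p = 5.2e-72), in the same direction.

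TFRC brings transferrin-bound iron into the cell. It had 14 UMI at 120.0 CPM and 45 UMI at 164 CPM in the globin-high barcodes, against 469 UMI at 42.8 CPM and 559 UMI at 37.6 CPM in the others. The plain CPM ratios were 2.80-fold (exact 95% interval 1.52 to 4.75) and 4.36-fold (3.15 to 5.92). The TMM-scaled log2 fold change was 2.35 (SE 0.36), with 1.89 and 2.64 in the single libraries. TFRC therefore ranked 481st of the 13187 tested genes by rise, and SLC25A37 125th, while the other 7 members ranked 5th to 32nd.

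Among the other barcodes, SLC25A37 and TFRC were read in groups set by marker genes, with at least 3 genes of a list detected; a barcode could enter several groups. In the 1544 and 1952 barcodes with neural progenitor markers SLC25A37 stood at 25.5 and 23.2 CPM. In the 720 and 915 with neuron markers it stood at 15.5 and 14.9 CPM, and in the 123 and 256 with mesenchyme markers at 12.7 and 6.59 CPM. The intervals of the progenitor and neuron groups did not overlap in either library, although many barcodes belonged to both. The second row under this symbol stood at 32.1 and 28.5 CPM with progenitor markers and at 26.6 and 25.4 CPM with neuron markers. Its intervals overlapped in both libraries (28.6 to 35.9 and 22.3 to 31.5 in replicate 1, 25.7 to 31.6 and 21.8 to 29.5 in replicate 2). The difference thus depends on the row. For TFRC the order was the same, at 45.1 and 40.4 CPM, 39.1 and 32.3 CPM, and 24.6 and 21.7 CPM, and the intervals of progenitors and neurons overlapped in replicate 1. In the 13 and 15 barcodes with trophoblast markers SLC25A37 had 0 UMI, which allows up to 22.6 and 25.4 CPM (exact Poisson bound). In the 52 and 69 barcodes with blood progenitor markers SLC25A37 stood at 49.2 and 20.9 CPM, and TFRC at 75.2 (exact 95% interval 49.1 to 110) and 43.8 CPM (27.1 to 67.0). The second row of SLC25A37 stood at 8.68 and 29.2 CPM there. Most UMI of this list in the other barcodes were of MEIS1 (4118 of 5192 and 4798 of 6234), and CD34 had 5 over both libraries. These barcodes are thus not shown to be blood progenitors. The globin-high level of both genes lay above each of these groups, although for TFRC in replicate 1 its interval (65.6 to 201) overlapped that of the blood progenitor markers. It also lay above 11.5 and 2.36 CPM (SLC25A37) and 11.5 and 30.7 CPM (TFRC) in 17 and 43 barcodes with hepatic or yolk sac markers. The second row of SLC25A37 stood at 45.8 and 28.4 CPM in these.

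**Figure D2:**
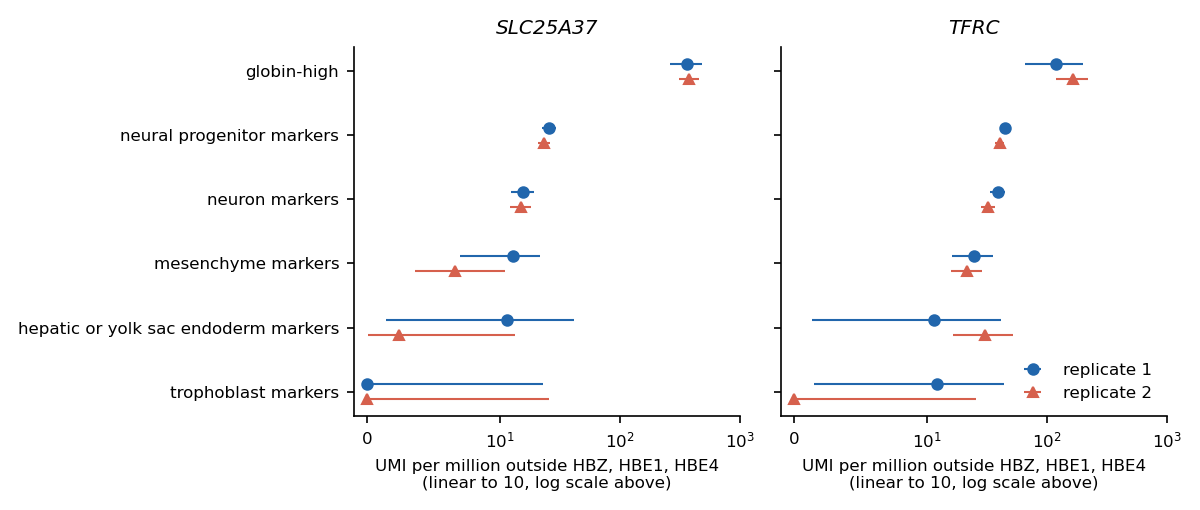
SLC25A37 and TFRC in CPM outside HBZ, HBE1 and HBE4 (linear to 10, log above) in globin-high barcodes and in other barcodes with at least 3 marker genes of a list, for replicate 1 (blue circles) and replicate 2 (red triangles). Bars are exact 95% Poisson intervals; the globin-high points of both genes lie to the right of the 5 groups drawn.

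The 7 erythroid members other than SLC25A37 and TFRC were found together in single barcodes. Of the 28 barcodes with over 20% globin, all 28 had UMI of at least 2 of the 7, and 11 had all 9 members. The median barcode there held 8 of the 9 at a median of 27013.5 UMI. In the other barcodes 5 of 4405, or 0.114%, had UMI of 2 or more of the 7, and 4259 had none, at a median of 5225 UMI. The 4 barcodes with 5 to 20% globin stood apart. They held 0 to 5 members at a median of 2034 UMI, and KLF1, GATA1, TAL1 and AHSP were at 0 in all 4, which allows up to 492 CPM each. At that depth the levels of the deeper globin-high barcodes could not be told from 0 for KLF1, GATA1 and TAL1, whereas AHSP at its summed level in either library lay above the bound. With the threshold set at 20%, which counts these 4 among the other barcodes, no member's call changed.

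Depth differs between the groups, so the share of barcodes with a UMI was also read after thinning each barcode to 2000 UMI outside the 3 globins, which left out 1 and 2 globin-high and 320 and 361 other barcodes. AHSP was then found in 6 of 8 and 15 of 21 globin-high barcodes and in 0.669% and 1.01% of the others, against 88.9%, 82.6%, 1.73% and 2.13% before thinning. ALAS2 was found in 62.5% and 81.0% against 0.304% and 0.288%, and before thinning in 77.8% and 91.3% against 0.560% and 0.696%. KLF1 was found in 75.0% and 52.4% of globin-high barcodes, and in 0 of 1644 and 0 of 2080 others. For AHSP, ALAS2 and KLF1 the shares were still far apart at equal depth. TAL1 was found in 0 of 8 and 3 of 21 globin-high barcodes, against 0.122% and 0.144%, and in replicate 1 the 0 allows up to 36.9%, so that no difference was detectable there at this depth. TFRC was found in 37.5% and 28.6% against 8.21% and 7.64%, and the exact 95% intervals overlapped in replicate 1 (8.52 to 75.5% against 6.93 to 9.65%).

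Traces of the genes in the other barcodes were set against the globin traces there, since free RNA of 1 source keeps its genes in 1 ratio. ALAS2 had 0.984 and 0.993 UMI per 1000 UMI of the 3 globins in the globin-high barcodes, and 1.37 (exact 95% interval 0.686 to 2.46) and 1.70 (0.991 to 2.73) in the others. The intervals of both groups overlapped, as they did for GATA1, KLF1, HEMGN and SLC4A1. For these 5 genes the UMI outside the globin-high group cannot be told apart from background by this ratio; of the GATA1 UMI, 5 of 13 lay in the barcodes with PF4. AHSP went above that ratio, at 4.37 (3.04 to 6.09) and 5.41 (4.06 to 7.06) against 1.14 and 2.57 per 1000. So did HBE2, itself an embryonic globin gene, at 10.9 (8.70 to 13.4) and 7.81 (6.17 to 9.76) against 1.92 and 4.53. Both genes thus lay above the globin-high value, and the source of their UMI in the other barcodes was not tested. SLC25A37, at 32.9 and 31.6 against 0.383 and 0.384, and TFRC, at 58.6 and 56.0 against 0.128 and 0.166, lay above that value too. TAL1 had 1.37 and 1.10 against 0.155 and 0.111, but 8 of its 11 UMI in replicate 1 came from 1 barcode with PF4. In the 100 barcodes with 0.5 to 1% globin, ALAS2 had 1 UMI and KLF1, GATA1, TAL1, AHSP, HEMGN and SLC4A1 had 0, which allows up to 27.6 CPM each. The 16 barcodes with 1 to 2% and the 6 with 2 to 5% had 1 AHSP UMI each as a group and 0 of the other 6 genes, but there a 0 allows up to 137 and 245 CPM, more than the mean globin-high level of TAL1 or SLC4A1.

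**Figure D3:**
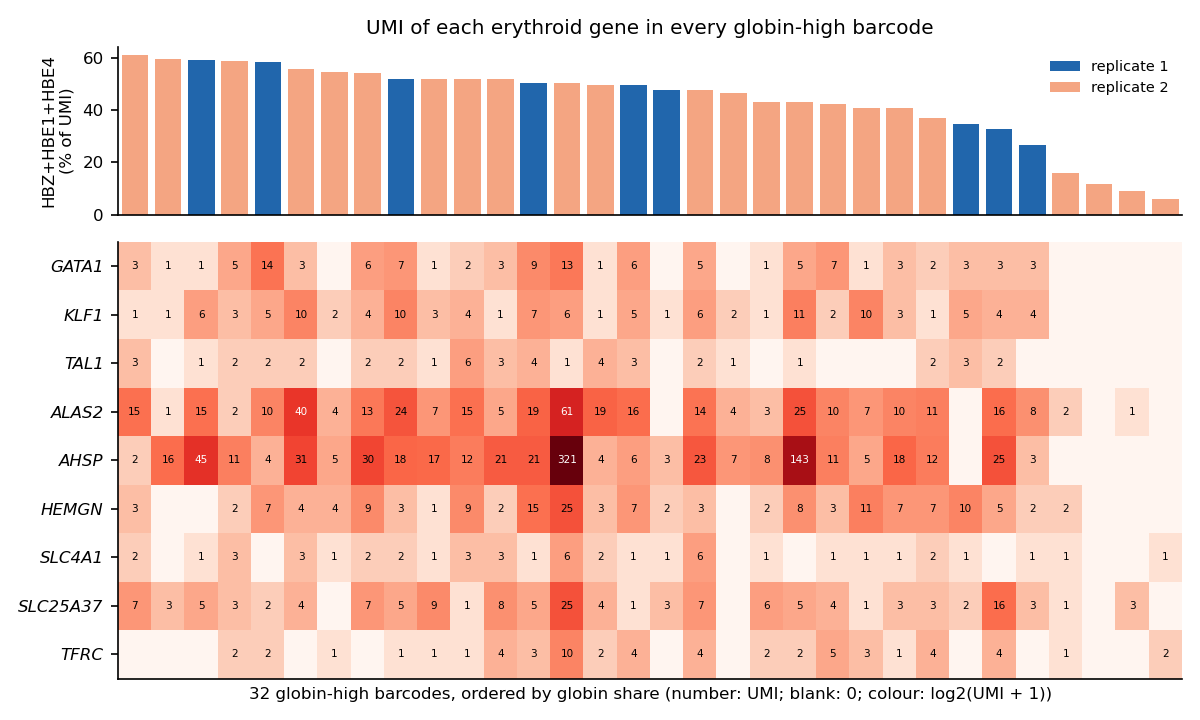
Upper bars give the share of UMI from HBZ, HBE1 and HBE4 in each of the 32 globin-high barcodes, ordered by that share and coloured by library. The grid below gives the UMI of each erythroid gene in the same barcodes (number and colour, log2 scale); the 4 right-most barcodes are nearly empty, and AHSP reaches 321 and 143 in 2 barcodes.

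Within the globin-high group the members varied unevenly from barcode to barcode. Over the 28 barcodes with more than 20% globin, ALAS2 ranged from 0 to 2673 CPM with a median of 799, KLF1 from 45.6 to 774 CPM with a median of 276, and GATA1 from 0 to 871 CPM with a median of 254. AHSP had the widest range, from 0 to 14067 CPM with a median of 1188. For the sparse genes this includes counting error, since medians were 3 UMI per barcode for GATA1, 2 for TAL1, 1 for SLC4A1 and 1.5 for TFRC.

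The 2 barcodes of replicate 2 with the most AHSP shared further features. Bovine HBG is a beta-type globin gene that was not used to choose the barcodes, and these 2 barcodes held 449 and 194 of its 652 UMI in the globin-high group, or 98.6%. In the other 21 globin-high barcodes of replicate 2 HBG had 9 UMI, and in the 9 of replicate 1 it had 0. Their AHSP levels were 14067 and 7792 CPM, against at most 7696 CPM (16 UMI in a barcode of 5147) and a median of 984 CPM in the 21 others. HBE4 was also high in both, at 342916 and 343850 CPM, against at most 237353 in the 21. HBE2, another embryonic beta-type gene, was low in both, at 8 UMI each, while 15 of the 21 others were at or above the lower of their levels. ALAS2 in these 2 stood at 2673 and 1362 CPM, and 3 of the 21 reached the lower value. Thus the 2 barcodes with most AHSP UMI were those with most HBG UMI, whereas the barcode at 7696 CPM of AHSP had 0 HBG UMI. Beta-type globin genes are similar in sequence, and reads could be split between them.

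**Figure D4:**
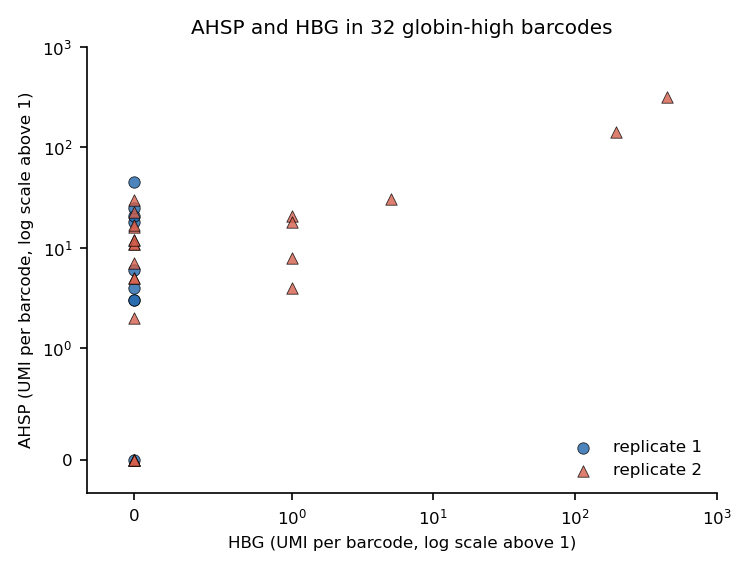
UMI of AHSP against UMI of HBG in each of the 32 globin-high barcodes (both axes linear to 1 and log above) for replicate 1 (blue circles) and replicate 2 (red triangles). The triangles at 194 and 449 HBG UMI also have the most AHSP, 143 and 321; HBG is at 5 or fewer UMI in all others.

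A barcode of replicate 1 with 34.5% globin went the other way. Among its 27366 UMI it had 0 of ALAS2, AHSP and TFRC, where the level of the other globin-high barcodes would give 18.1 UMI of ALAS2, 39.5 of AHSP and 2.83 of TFRC. An observed 0 allows up to 206 CPM, below the 1010.2 CPM of ALAS2 and 2203 CPM of AHSP in the other globin-high barcodes but not below the 158 CPM of TFRC. It still carried 10 UMI of HEMGN, 5 of KLF1, 3 of GATA1 and 3 of TAL1. HBM, an alpha-type globin gene, had 132 UMI in it, at 7364 CPM against 1624 CPM over the others. Another barcode with over 20% globin reached more, 10582 CPM of HBM. HBE1 stood at 32247 CPM in the barcode with 34.5% globin, against 305818 over the others. This barcode was the sole one with over 20% globin that lacked both ALAS2 and AHSP. Like the pair above it was picked out after its values had been seen.

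Most genes of the heme pathway were higher along with ALAS2. Of 20 heme genes 12 were called higher and 1 lower, with a median log2 fold change of 3.23 against -0.90 over all genes tested. Among the higher were enzymes that act after ALAS2, namely ALAD (1019.8 and 1071 CPM against 31.8 and 31.4), UROS, UROD (231 and 168 against 11.1 and 11.6), CPOX, PPOX and FECH, which inserts the iron. TMEM14C, which helps move a heme precursor into mitochondria, had 1234 and 1487 CPM against 59.1 and 66.1 (log2 fold change 4.91, SE 0.20, edgeR adjusted p = 1.9e-125). ALAS1, the form of the first enzyme that other tissues use, stood at 0 and 7.29 CPM against 21.0 and 20.2 and was not called (adjusted p = 0.29). The lower gene was FLVCR1, a heme and choline transporter, at 0 and 3.64 CPM against 49.0 and 41.6, a call from 1 UMI that 4 of 18 alternatives lost.

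Iron genes beside TFRC and SLC25A37 were called higher for 11 of 17 and lower for 0, with a median log2 fold change of 1.50. All but TFR2 reached the minimum level in the other barcodes alone. FTH1, the ferritin heavy chain, reached 20054 and 20639 CPM against 869 and 1042 (log2 fold change 4.88, SE 0.11). TFR2, a second transferrin receptor that senses iron, stood at 163 and 120.2 CPM against 1.37 and 0.605 and was tested because of its globin-high level. STEAP3, the endosomal iron reductase, stood at 103 and 149 CPM against 2.74 and 2.62, and the iron exporter SLC40A1 at 51.4 and 72.9 against 8.77 and 5.18.

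Membrane and cytoskeleton genes followed SLC4A1. Of the 23 tested, from 27 listed, 17 were called higher and 2 lower, and the median log2 fold change was 3.24; 16 of the 23 reached the minimum level in the other barcodes alone. KEL, a blood group antigen, had 53 UMI in globin-high barcodes and 0 in all others, at least 1166-fold higher when the 0 is set to 3 counts (the floor, taken over the 2 libraries). RHAG, a blood group glycoprotein of the red cell membrane, had 32 UMI against 2. KEL and RHAG were both tested because of their globin-high levels. The lower genes were the water channel AQP1, at 0 UMI against 871 and at least 4.40-fold lower at that floor, and CD47, whose call 9 of 18 alternatives lost.

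Red cell enzymes and antioxidants were called higher for 12 of 16 and lower for 2 (CA3 and PKM), with a median log2 fold change of 2.33. PRDX2, an abundant red cell peroxidase, stood at 6899 and 6545 CPM against 297 and 368, BLVRB at 2151 and 2675 against 45.7 and 52.3, and GPX1 at 1911 and 2361 against 74.1 and 87.6. PKLR, the pyruvate kinase of red cells and liver, was higher (180.0 and 146 CPM against 0.731 and 0.403) while PKM, the form of most tissues, was lower (163 and 76.5 CPM against 377 and 422, log2 fold change -1.43, SE 0.29). PKLR was tested because of its globin-high level, so its call adds no support.

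Of 24 partners of GATA1, TAL1 and KLF1, 8 were called higher and 5 lower, with a median log2 fold change of 0.46; over all genes tested 11.0% were higher and 22.8% lower, so the lower share was near the background. Higher were NFE2 (94.3 and 117 CPM against 1.10 and 0.740), GFI1B, LMO2, which bridges TAL1 and GATA1, LYL1, IKZF1, FOXO3, ZBTB7A and E2F4. Of these, NFE2, GFI1B, LYL1 and IKZF1 entered the test through the globin-high barcodes, so that their calls add no support. GATA2, which acts before GATA1 in blood progenitors, had 0 UMI in the globin-high barcodes against 690 in the others, at least 3.48-fold lower at the floor. BCL11A (8.57 and 0 CPM against 98.7 and 94.8), which represses globin genes in later life and is also a neuronal gene, was lower, as were SOX6, BACH1 and RCOR1. MYB, a progenitor regulator, stood at 17.1 and 0 CPM against 10.0 and 6.66 and was not called. By limma-trend 3 partners were called higher and 1 lower. The 3 were NFE2, GFI1B and LYL1, all of which entered through the globin-high barcodes. LMO2, FOXO3, ZBTB7A, E2F4 and IKZF1 lost their calls there, so no partner that passed in the other barcodes alone stayed higher.

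Of 11 erythropoietin signalling genes tested, 1 was called higher (CISH, 51.4 and 29.2 CPM against 5.57 and 4.44) and 1 lower, which is no more than the shares over all genes. Across the alternatives the number called higher ran from 1 to 4, the 4 with no replicate block. The lower gene was KIT, the receptor of early progenitors, at 0 UMI against 714, or at least 3.61-fold lower. EPOR, the erythropoietin receptor, fell under the minimum total count for testing, with 1 and 8 UMI in the globin-high barcodes and 2 and 3 in all others. Of 12 late maturation genes 4 were called higher and 3 lower, with a median log2 fold change of 0.43; the share lower was near the 22.8% of all genes. The mitophagy receptor BNIP3L stood at 394 and 229.6 CPM against 143 and 169.7, and XPO7, a nuclear export factor, was lower at 17.1 and 10.9 against 112 and 98.6.

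**Figure D5:**
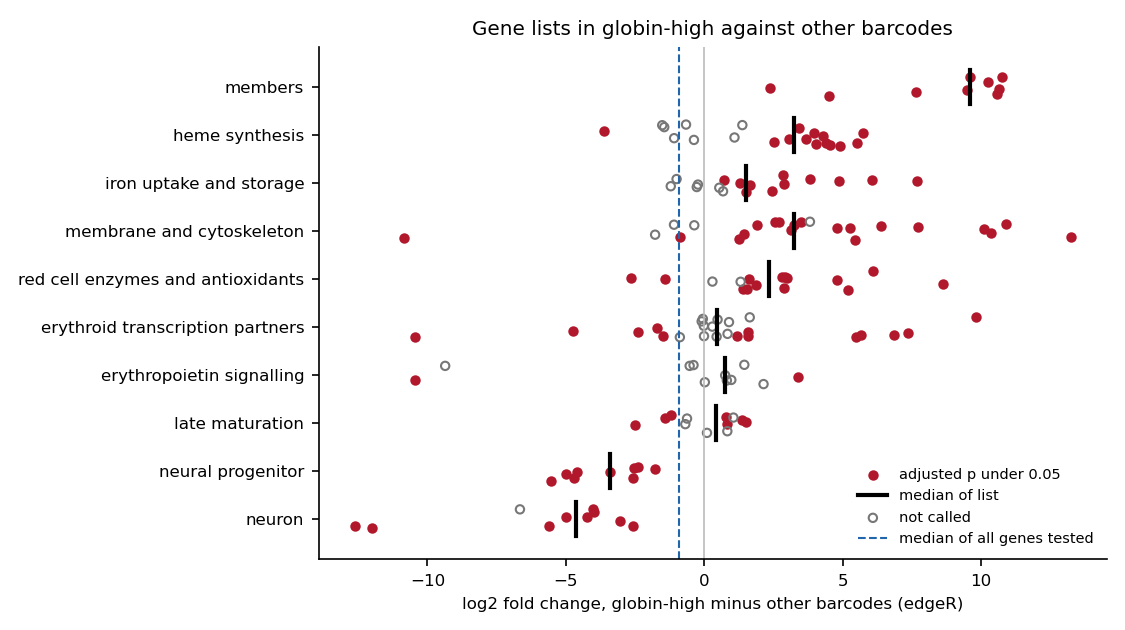
Log2 fold change (edgeR, globin-high minus other barcodes) of each tested gene, by list; filled points passed adjusted p under 0.05, black bars are list medians, and the dashed line is the median of all genes tested (-0.90). Heme (3.23) and membrane (3.24) genes lie to the right, neural progenitor (-3.40) and neuron (-4.62) markers to the left.

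Outside the lists, the genes with the largest rises in the contrast, and in this sense most like the members, were SSX5 (608 and 514 CPM against 0.274 and 0.605, log2 fold change 10.64, SE 0.38), the calcium-activated potassium channel KCNN4, the blood group adhesion gene ICAM4, SDR16C5, FXYD3 (454 and 652 CPM against 1.10 and 1.75), PFKFB1, ACSM2B and SMIM24. Their likeness was measured as rank by fold over 2 libraries and 2 groups. None of these genes reached the minimum level for testing in the other barcodes alone. They had to be high in the globin-high barcodes to be tested, so their ranks describe them and support nothing further. The largest falls were CSRNP3, NECTIN3, PCDH7 and MARK1, each at 0 UMI in the globin-high barcodes and at least 39.8-fold to 48.6-fold lower at the floor, calls that DESeq2 did not make.

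Markers of other cells differed by list in the globin-high barcodes. All 9 neural progenitor markers in the table were called lower, as were 9 of 10 neuron markers, with summed levels of 171 and 197 CPM against 2633 and 2538, and of 42.8 and 65.6 CPM against 1922 and 2052. Of 10 megakaryocyte markers 9 were at 0, PF4 and ITGA2B included, and GP9 had 2 and 13 UMI, at 17.1 and 47.4 CPM against 1.00 and 0.269, and was called higher. GP9 was tested because of its globin-high level. Macrophage markers had 0 and 1 UMI in all. PECAM1, CDH5 and 8 other endothelial markers of 11 were at 0, and KDR had 1 and 3 UMI. The 8 blood progenitor markers summed to 163 and 117 CPM against 474 and 419, with 1 called higher and 2 lower. PTPRC, KIT and FLI1 were at 0. KIT was called lower, as was MEIS1 (8.57 and 25.5 CPM against 376 and 323). CD34 was called higher (25.7 and 54.7 CPM against 0.183 and 0.202) but was tested because of its globin-high level. RUNX1 was not called (103 and 36.4 CPM against 39.8 and 47.4). APOA1, of the hepatic list, stood at 266 and 776 CPM against 701 and 1139.8, and KRT18, of the trophoblast list, at 120.0 and 61.9 against 76.9 and 98.3; neither was called. The part of these genes in the results above was not tested. GFP, which has a row in the count table, had 10 and 17 UMI in the globin-high barcodes, at 85.7 and 61.9 CPM against 1661 and 1851 CPM in the others. The sources used here do not give the sort gate before loading, which can set the number of globin-high barcodes and, if it used GFP, these levels.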

How the data were processed

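Single-cell RNA was measured with the 10x Genomics Chromium 3′ v3.1 kit in 2 libraries of day 25 chimeric bovine embryos, per the labels' protocols. The authors deposited raw UMI counts, and Cell Ranger, R 4.1.2, Seurat 4.3.0 and genome build bosTau9 are named per the submitters' processing notes. All deposited barcodes were used, doublets were not removed, and gene names are those of the table. The prefix of each barcode column gives its library's number, and 0 columns belonged to no sample. No sequences or coordinates were used.

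UMI were summed per library and group, without HBZ, HBE1 and HBE4, which define the groups. The sums were tested with edgeR 4.0.16 in R 4.3.3, with TMM scaling and glmQLFit with robust fitting. Genes were kept by filterByExpr, which asked for at least 1.78 CPM in 2 sums and for a minimum total count. Both groups come from the same library, so library was a term; the deviations of the 2 libraries correlated at -0.01 between groups over 3974 genes. The labels name no separate embryos, and the spread behind the p-values was in effect shared by all genes. The p-values thus measure neither a spread between embryos nor that of a single gene between these libraries. On simulated data, with 100 genes changed at each fold, the test recovered 43% of 2-fold and 91% of 4-fold changes, with 6 false calls among 13221 genes. The changed genes were drawn from those with at least 50 CPM in the other barcodes, a level that no member reached there. In the real data far more genes were called, 1451 higher and 3003 lower, and the median log2 fold change was -0.90. Whether the simulated rates hold for such data, or for genes sparse in the other barcodes, was not tested. Intervals are exact 95% Poisson, binomial (Clopper-Pearson) or conditional intervals from scipy 1.17.1 and cover counting error only. Gene-level limits at 0 use 3 counts.

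The members and lists were chosen with earlier results of these data known. Named genes are all members, up to 4 called genes per list with the largest fold, and outside the lists, globins and unnamed identifiers the 8 largest rises and 4 largest falls; each needed at least 50 CPM in the higher group of both libraries. Other genes of the lists, such as GATA2, KIT, MYB, ALAS1, EPOR and AQP1, and genes given for single barcodes were named after their values were seen. Some genes that the rule names are not reported here. Alternatives covered the globin threshold, barcodes, totals, scaling, filters, DESeq2 1.42.0, limma-trend (limma 3.58.1) and the library term.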

Additional observations from a re-analysis of the deposited data

How the results depend on the processing

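Each of the 9 members kept its direction and its call in every one of the 18 alternatives that tested it; with at least 10 counts in each of 2 sums SLC4A1 was not tested, which left 8. With 1 library there was no test: log2 fold changes without replicate 1 or without replicate 2 ran from 1.89 to 2.64 for TFRC, 4.31 to 4.68 for SLC25A37, 8.79 to 9.97 for AHSP, 9.95 to 11.60 for SLC4A1, 10.13 to 11.51 for KLF1 and 10.19 to 12.63 for HEMGN. Over all genes 1451 were called higher and 3003 lower, or 32.6% of calls higher. Limma-trend called 715 higher, and lower genes numbered 1732 with DESeq2, 1945 with upper-quartile scaling and 1862 with a globin threshold of 1%; the causes were not tested. Scaling by totals only gave 1020 higher and 4479 lower, and upper-quartile scaling 1976 higher, shifts of the median log2 fold change by -0.48 and 0.46. With no replicate block, the pairing by library dropped, 1793 genes were higher and 3902 lower, and all 9 members kept their calls. Of 252 list counts under alternatives 208 stayed within 1.5 times, and no called gene of the lists turned direction. Thinning to 1000 UMI instead of 2000 moved the share with a UMI for 8 of 9 members. The 9 and 23 globin-high barcodes limit all values.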

Other observations

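MYL7, which encodes an atrial myosin light chain and was listed as a heart marker, was abundant in the globin-high barcodes. It had 283 and 708 UMI there, at 2425 and 2579.9 CPM, against 185 and 65 UMI, at 16.9 and 4.37 CPM, in all others. It was found in 28 of 28 barcodes with over 20% globin. The other heart markers did not move with it: TNNT2, NKX2-5 and MYH6 were at 0 in the globin-high barcodes, TNNI1 had 1 and 3 UMI and ACTC1 0 and 1. In the other barcodes 152 of the 185 MYL7 UMI of replicate 1 lay in 1 barcode. By edgeR the log2 fold change was 8.57 (SE 1.31, adjusted p = 0.19) and was not called, whereas DESeq2 (adjusted p = 1.9e-18) and limma-trend (adjusted p = 0.012) called it higher. It was singled out after its values were seen.

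HBE2 was also high but not called: it stood at 1808 and 4475 CPM in the globin-high barcodes against 7.95 and 5.24 CPM, with an edgeR adjusted p = 0.17. The plasma apolipoprotein gene APOA1 led the hepatic list in the globin-high barcodes, where that list summed to 283 and 791 CPM against 1068 and 1848 CPM, with AFP, TTR and ALB at 0.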
